A study of Mus musculus with 2 samples.

Results

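The local renin-angiotensin system of the mouse adrenal gland is described here through 9 genes out of 55536 annotated genes. They were chosen by symbol for their known roles, with earlier results of these data known. The 9 are the substrate Agt, the enzymes Ren1, Ace and Enpep, the accessory protein Atp6ap2, and the receptors Agtr1a, Agtr1b, Agtr2 and Mas1. The tissue was adrenal gland of 36-day-old male B6CASTF1/J mice, whose total RNA was sequenced. These mice are the F1 hybrid of C57BL/6J and CAST/EiJ, with no treatment or mutation named. The series is 1 group of 2 libraries, replicate 1 and replicate 2, each made from 300 ng of RNA. It gives a profile and the spread between these libraries, and holds no contrast between conditions. The labels number the libraries as biological replicates 1 and 2. The labels also conflict on whether the libraries come from separate animals or a single animal, so the spread may be technical.

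In the circulation, renin from the kidney cuts angiotensin I from angiotensinogen, which the liver secretes, and angiotensin-converting enzyme on endothelium trims it to angiotensin II. In the adrenal cortex, angiotensin II acts on the AT1 receptor of zona glomerulosa cells, which signals through Gq proteins and calcium and drives aldosterone synthesis. The AT2 receptor is best known from fetal tissue and from the adrenal medulla. Rodents carry a pair of AT1 receptor genes, where humans carry a single gene.

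Agtr1a and Agtr1b are alike enough that some short stretches fit both, so their sequences are shown first. Both have a single coding exon of 1077 bases for 359 residues in the GENCODE M21 transcripts. Of these, 99 bases differ, an identity of 90.8%, and 22 residues differ, a protein identity of 93.9%. The 90 coding bases with the most differences, coding bases 973 to 1062, hold 20 of them. They lie at mm10 chr13:30381926-30382015 on the plus strand for Agtr1a and chr3:20315379-20315468 on the minus strand for Agtr1b, and capitals mark the bases that differ.
Agtr1a: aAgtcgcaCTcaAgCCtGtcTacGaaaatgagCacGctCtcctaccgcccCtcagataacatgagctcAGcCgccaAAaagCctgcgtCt
Agtr1b: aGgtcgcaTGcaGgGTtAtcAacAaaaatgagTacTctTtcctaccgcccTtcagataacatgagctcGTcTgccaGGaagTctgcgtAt
Of 2150 windows of 50 bases along the main transcript Agtr1a-201, 33 (1.53%) were also found in Agtr1b-201. Of 2100 windows of 100 bases, 0 were. Stretches of 100 bases thus always carry a base that tells the genes apart, while some shorter ones do not.

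The substrate is shown by the bases that make the hormone. Angiotensin I is coded by 30 bases of Agt, residues 30 to 39 of 482, at mm10 chr8:124564435-124564494 on the minus strand with 15 bases on each side, and capitals mark those codons.
Agt: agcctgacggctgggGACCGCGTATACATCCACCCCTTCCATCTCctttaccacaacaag

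Gene counts came to 35511291 for replicate 1 and 30169338 for replicate 2. TPM is transcript abundance per length, brought to an equal sum in both libraries. Nuclear protein-coding genes took 31.0% of the TPM in replicate 1 and 23.2% in replicate 2, so TPM in replicate 2 are lower for most such genes. Levels are therefore also given rescaled over nuclear protein-coding genes, and ratios between libraries come from counts. The adrenal label was met by its markers, with Cyp11b2, the aldosterone synthase of the zona glomerulosa, at 110 and 51.2 TPM and all 7 chromaffin markers above 1 TPM. Markers of other organs differed between the libraries. The 6 pancreas markers summed to 0.2 TPM in replicate 1 and 6665 TPM in replicate 2, the 8 liver markers to 18.5 and 151 TPM, and the 8 kidney markers to 1.66 and 0.86 TPM.

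Of the 9 genes, 8 reached 1 TPM in both libraries, as did 11526 of 22015 nuclear protein-coding genes (52.4%). Mas1 alone did not. By mean TPM the order was Agtr1a, Atp6ap2, Agtr2, Enpep, Ace, Agtr1b, Ren1, Agt and Mas1. Neighbours were taken as apart where their libraries did not overlap and their means differed by more than the sum of their SDs. By this measure Agtr1a stood apart from Atp6ap2, while Atp6ap2 and Agtr2, Enpep and Ace, and Ace and Agtr1b did not stand apart on the TPM scale. By TPM within each library, Enpep was above Ace and Ace above Agtr1b, while Atp6ap2 and Agtr2 changed places between the libraries. With rescaled TPM, Enpep and Ace and then Ace and Agtr1b stood apart, and Agtr2 and Enpep and then Ren1 and Agt no longer did. In the second transcript file, a separate quantification of the same reads, Atp6ap2 stood apart from Agtr2, and Agtr2 and Enpep changed places within their spread.

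**Figure D1:**
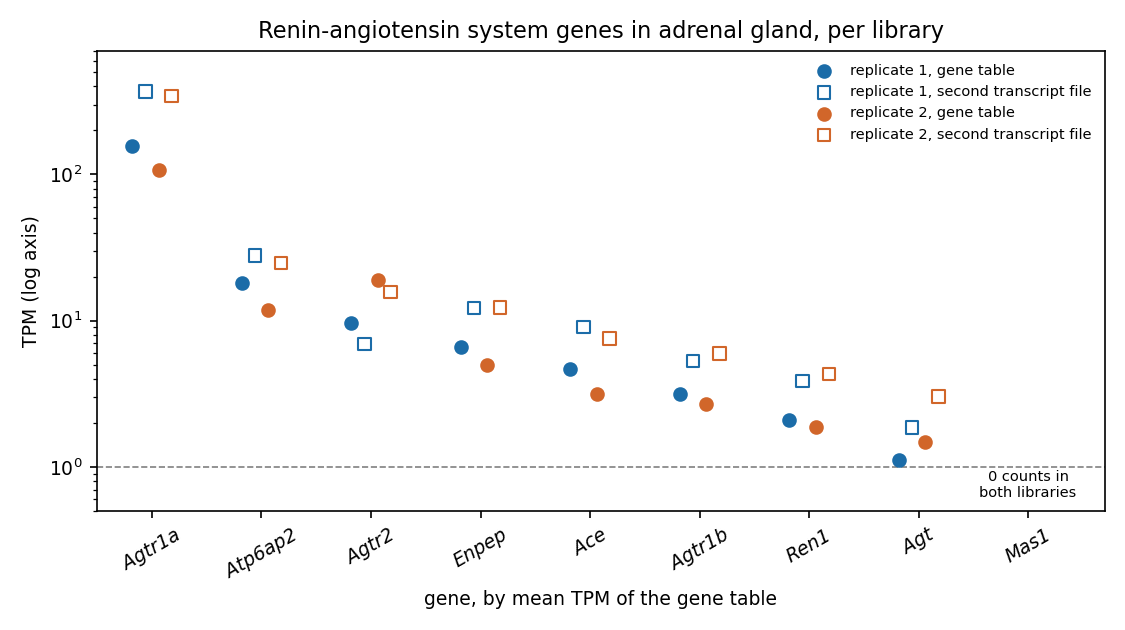
TPM of each gene on a log axis, one point per library, with replicate 1 left of replicate 2. Filled circles are the gene table and open squares the second transcript file, the dashed line is 1 TPM, and Mas1 had 0 counts in both libraries. Agtr1a lies above all the others, and Agtr2 and Agt are the genes whose gene-table level is higher in replicate 2.

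Agt (ENSMUSG00000031980.9, mm10 chr8:124556534-124569706, minus strand) encodes angiotensinogen, the precursor of all angiotensin peptides. It had 71 expected counts in replicate 1 and 103 in replicate 2, or 1.12 and 1.48 TPM (1.30 ± 0.255, the mean and SD of 2 libraries, as for each level below). It was the lowest of the genes detected, at rank 11476 of 22015 by mean TPM. The log2 ratio of scaled counts, replicate 1 over replicate 2, was -0.82, which is 1.77-fold in favour of replicate 2 (1.30 to 2.43). This range is an exact 95% interval and, like all intervals here, covers counting error only. The difference is under the 2-fold used here as the call. The liver and adipocyte marker lists are given here, since liver and fat both make angiotensinogen. All 8 liver markers were at least 2-fold higher in replicate 2, with albumin (Alb) at 7.24 TPM in replicate 1 and 51.4 TPM in replicate 2. The 8 adipocyte markers summed to 2091 and 2030 TPM, and rescaled over coding genes to 6734 and 8736 TPM. By counts 3 of them were higher in replicate 1, among them Cfd, the adipokine adipsin, at 448 and 256 TPM, and 5 were higher in replicate 2, of which 2 were called. Of these, Ucp1, the uncoupling protein of brown fat, had 156 and 302 TPM, and Elovl3, a fatty acid elongase of brown fat, 1.85 and 11.2 TPM. Their part in the Agt level was not tested.

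Ren1 (ENSMUSG00000070645.5, mm10 chr1:133350510-133360325, plus strand) encodes renin, the protease that releases angiotensin I. It had 110 expected counts in replicate 1 and 109 in replicate 2, or 2.09 and 1.88 TPM (1.985 ± 0.148). The libraries were close, with a log2 ratio of -0.28 and a fold of 0.826 (0.628 to 1.09), an interval that includes no difference. All of its reads were given to the 1592-base transcript in both transcript files. Markers of the kidney, the main source of circulating renin, were low in sum and uneven. Aqp2, a water channel gene, had 70 and 33 counts, or 1.5 and 0.64 TPM. Lrp2, an endocytic receptor gene, had 67 and 69 counts, or 0.16 and 0.13 TPM. Slc12a1, Slc34a1 and Kap were at 0 counts in both libraries, Umod had 0 and 4 counts, and Slc12a3 had 0 and 6. Their part in the Ren1 level was not tested. Within a library, Agt was 0.536 times Ren1 in replicate 1 and 0.787 times in replicate 2 by TPM (0.662 ± 0.178), and 0.481 and 0.700 times in the second file.

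Ace (ENSMUSG00000020681.14, mm10 chr11:105967945-105989964, plus strand) encodes angiotensin-converting enzyme. It had 755 expected counts in replicate 1 and 550 in replicate 2, or 4.67 and 3.16 TPM (3.915 ± 1.07). Scaled by counts the difference was small, with a log2 ratio of 0.17 and a fold of 1.12 (1.01 to 1.26). Endothelium, its usual site, was well represented. The 8 endothelial markers summed to 272 TPM in replicate 1 and 206 TPM in replicate 2, and 0 of 8 were called.

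The Ace gene has a start for the somatic enzyme, with its pair of catalytic domains, and a second start inside the gene that gives the shorter enzyme of the testis. The RefSeq starts nearest to the transcripts Ace-201 and Ace-202 lie 7241 bases apart. The 150 bases before each are printed (GRCm38.p6, plus strand, chr11:105967798-105967947 and chr11:105975039-105975188), since the transcripts of these starts are compared next. Capitals mark the letters TATAA.
Ace-201: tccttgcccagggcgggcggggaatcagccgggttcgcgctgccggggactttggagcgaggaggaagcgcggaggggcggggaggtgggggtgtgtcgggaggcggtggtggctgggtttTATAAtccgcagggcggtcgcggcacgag
Ace-202: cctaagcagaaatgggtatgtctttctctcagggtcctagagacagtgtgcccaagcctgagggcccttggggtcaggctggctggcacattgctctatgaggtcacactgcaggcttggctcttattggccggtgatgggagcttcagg
Ace-201 (4906 bases) had 689 expected counts in replicate 1 and 468 in replicate 2, or 4.06 and 2.51 TPM. Ace-202 (2418 bases) had 20.6 and 16.0 counts, or 0.25 and 0.18 TPM. In the second file Ace-201 had 6.11 and 5.22 TPM and Ace-202 0.73 and 0.07 TPM. The transcript of the somatic start was thus the leading one in both libraries and both files. Ace-203 (3649 bases) had 0.36 and 0.48 TPM in the first file and 0.76 and 1.48 TPM in the second. Ace-204 (695 bases) had 0 TPM in both libraries in the first file and 1.42 and 0.80 TPM in the second, so the files disagreed on the minor transcripts.

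TATAA on the gene's strand, anywhere in the 250 bases before a start, was found in 16.0% of 32851 RefSeq promoter windows, and on either strand in 22.8%. The 8 genes with a window have 9 windows, as Ace has a window for each start, and Agtr1a has none. TATAA on the gene's strand was in 5 of the 9. In these it began 26 to 31 bases before the start: at -29 in Ren1, -31 in Agtr1b, -30 in Agt, -29 in the Ace-201 window and -26 in Agtr2. It was not in the windows of Enpep, Atp6ap2, Mas1 and Ace-202. A match of these letters is a description and not a measured site.

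Enpep (ENSMUSG00000028024.14, mm10 chr3:129269175-129332720, minus strand) encodes aminopeptidase A, which turns angiotensin II into angiotensin III. It had 883 expected counts in replicate 1 and 638 in replicate 2, or 6.64 and 4.95 TPM (5.795 ± 1.20). Rescaled over coding genes the libraries were almost equal, at 21.4 and 21.3 TPM, and the fold by counts was 1.13 (1.02 to 1.26). Ace was 0.703 times Enpep in replicate 1 and 0.638 times in replicate 2 by TPM (0.671 ± 0.0459). The full-length transcript Enpep-201 (4181 bases) had 5.71 and 3.42 TPM, or 85.9% and 69.1% of the gene. Enpep-203, a retained-intron transcript, had 0.24 and 1.00 TPM in the first file and 1.26 and 3.06 TPM in the second. It was higher in replicate 2 in both files, while Enpep-201 was lower there in both.

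Atp6ap2 (ENSMUSG00000031007.2, mm10 chrX:12587801-12617049, plus strand) encodes the prorenin receptor, which is also an accessory subunit of the V-ATPase, the proton pump of acidic vesicles. It had 1399 expected counts in replicate 1 and 1024 in replicate 2, or 18.1 and 11.9 TPM (14.965 ± 4.41). Its log2 ratio was 0.16 and its fold 1.12 (1.03 to 1.21). All 15 other V-ATPase subunits listed had a higher TPM than Atp6ap2 in each library, with means from 19.7 ± 5.84 for Atp6v1d to 110 ± 35.5 for Atp6v0c, the ring subunit. Atp6v1e1 had 84.1 ± 22.7, Atp6v1h 68.6 ± 24.0 and Atp6ap1, the other accessory subunit, 57.5 ± 19.0 TPM. None of the 15 was called, and their median log2 ratio was 0.19.

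Agtr1a (ENSMUSG00000049115.15, mm10 chr13:30336441-30382867, plus strand) encodes the main AT1 receptor of mice. It had 9865 expected counts in replicate 1 and 7216 in replicate 2, or 156 and 106 TPM (131 ± 35.1). Rescaled over coding genes it had 502 and 457 TPM (480 ± 31.7). It ranked 304 of 22015 nuclear protein-coding genes by mean TPM. The libraries were close by counts, with a log2 ratio of 0.16 and a fold of 1.12 (1.09 to 1.15). Agtr1a made up 77.4% of the summed TPM of the 9 genes in replicate 1 and 70.2% in replicate 2. The nuclear protein-coding genes nearest to it in log2(TPM + 1) over the 2 libraries were Rpl22, a ribosomal protein gene, at 153 and 106 TPM (distance 0.0288), Nme2, a nucleoside diphosphate kinase gene (0.0342), and Nfe2l1, a transcription factor gene (0.0389).

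Markers of the zona glomerulosa, whose cells are best known for AT1 receptors, ranged widely, from Ccn3 at 0.51 and 0.26 TPM, the lowest, to Kcnk3, the only one of the 10 with a mean above that of Agtr1a. Kcnk3, a potassium channel gene, had 280 ± 111 TPM, Dab2, an endocytic adaptor gene, 112 ± 27.2, Cyp11b2 80.5 ± 41.4 and Kcnk9, another potassium channel gene, 36.8 ± 9.68. The 10 markers summed to 771 TPM in replicate 1 and 456 TPM in replicate 2. None of the 10 was called and their median log2 ratio was 0.31. In bulk tissue, fewer cells of a type and less RNA per cell cannot be told apart.

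Agtr1b (ENSMUSG00000054988.9, mm10 chr3:20314473-20367177, minus strand) encodes the other AT1 receptor. It had 229 expected counts in replicate 1 and 212 in replicate 2, or 3.17 and 2.67 TPM (2.92 ± 0.354). The libraries did not differ beyond counting error, with a log2 ratio of -0.18 and a fold of 0.884 (0.731 to 1.07). Within a library Agtr1a was 49.2 times Agtr1b in replicate 1 and 39.8 times in replicate 2 by TPM (44.5 ± 6.63). In the second file it was 69.6 and 57.7 times (63.7 ± 8.40), and by counts alone, not per length, 43.1 and 34.0 times (38.6 ± 6.40). Agtr1a was far above Agtr1b in both libraries on each of these scales. The counts of both genes were whole except for 0.04 of a count in replicate 2, so almost no fraction of a count had been divided between genes.

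The transcripts of Agtr1a were divided differently by the files. Agtr1a-201 (2199 bases) had 9516 expected counts in replicate 1 and 6922 in replicate 2 in the first file, and 9445 and 6933 estimated counts in the second, so the files agree closely on it. The other transcripts are short, and few counts on a short transcript give a high TPM. Agtr1a-206 (445 bases) had 1.58 and 1.34 TPM in the first file, and 147 and 149 TPM from 498 and 421 counts in the second. Agtr1a-204, also of 445 bases, had 12.35 and 13.6 TPM in the first file and 0 in the second. The share of Agtr1a-201 was therefore 82.3% and 79.9% of the gene's TPM in the first file, and 55.0% and 52.7% in the second. By counts it was 96.5% and 95.9% in the first file and 94.2% and 93.7% in the second. Sense to the gene, inside an intron, lies Gm48161, which had 70 and 59 counts.

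Agtr2 (ENSMUSG00000068122.10, mm10 chrX:21484544-21489164, plus strand) encodes the AT2 receptor, which in many tissues opposes AT1 signalling. It had 518 expected counts in replicate 1 and 968 in replicate 2, or 9.62 and 19.1 TPM (14.35 ± 6.69). Rescaled over coding genes it had 31.0 and 82.1 TPM, and in the second file 6.93 and 15.6 TPM. Replicate 2 was the higher library on every one of these scales. The log2 ratio was -1.19, or 2.28-fold higher in replicate 2 (2.05 to 2.54). Agtr2 was the 1 gene called among the 8 tested (12.5%), with 6.87% of all 14780 tested genes called in either direction and 5.13% called as higher in replicate 2. With 8 genes tested, 1 call is no result about the group as a whole. With the spike-in counts as the scale Agtr2 was not called, at -0.30, and scaling by the spike-ins moves the median of all genes by 0.89. On that scale the ratios of Agtr1b, Ren1 and Agt changed sign, while Agtr2 remained the lowest.

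Much of the TPM of Agtr2 in the gene table came from a short transcript. A processed transcript of 314 bases had 40.9 counts in replicate 1 and 101 in replicate 2, which made 5.38 and 12.1 TPM, or 55.9% and 63.3% of the gene. In the second file it had 0 counts. The transcript of 3283 bases, which codes for the receptor, had 477 and 867 counts, or 4.24 and 7.01 TPM. With the coding transcript alone, a setting added after the data were seen, the mean level was 5.625 TPM in place of 14.35, and the log2 ratio was -1.15 and still called. The coding transcript held 92.1% of the gene's counts in replicate 1 and 89.6% in replicate 2, so the ratio of counts could move little. The level by TPM depends on the short transcript. The libraries had 9.62 and 19.1 TPM with it, and 4.24 and 7.01 TPM without it, which is a smaller fold.

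By scaled counts, several marker lists were higher in replicate 2 together with Agtr2. All 7 chromaffin markers were, with a median log2 ratio of -0.45 and 0 of 7 called. Scaling by the spike-ins moves log2 ratios by 0.89 toward replicate 1, which is more than the size of this median. The summed TPM of the chromaffin markers was 1685 in replicate 1 and 1904 in replicate 2, and rescaled over coding genes 5427 and 8193. Chgb, a granin gene, had 484 and 717 TPM, Chga, another granin gene, 457 and 486, Npy, a neuropeptide gene, 240 and 213, and Th, the rate-limiting enzyme of catecholamine synthesis, 210 and 184. The pancreas and liver markers, given above, were all called as higher in replicate 2. The adipocyte list had a median of -0.34. Other lists went the other way. The zona fasciculata markers were higher in replicate 1 in 5 of 5, with a median of 0.33 and Mrap, an accessory protein of the ACTH receptor, called at 218 and 72.4 TPM. The erythroid markers were too in 5 of 5, with a median of 0.83 and Hba-a2, an alpha-globin gene, called at 892 and 303 TPM. So were 5 of 5 stroma markers, with a median of 0.44, and 6 of 6 macrophage markers, with a median of 0.31, none of them called. The zona glomerulosa list had 8 of 10 higher in replicate 1 and 2 higher in replicate 2, with a median of 0.31. For the endothelial list these numbers were 6 and 2 of 8, with a median of 0.11. The part of any of these lists in the Agtr2 ratio was not tested.

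Among the AT receptors, Agtr1a made up 92.4% of the summed TPM in replicate 1 and 83.0% in replicate 2, and Agtr2 5.70% and 14.9%. In the second file the shares were 96.8% and 94.1% for Agtr1a, and 1.82% and 4.28% for Agtr2. Agtr1a over Agtr2 was 16.2 and 5.57 by TPM, and 53.3 and 22.0 in the second file. The AT2 share was thus higher in replicate 2 in both files, and its size depended on the file. The first-file shares include the short processed transcript of Agtr2, and the second-file shares include the high TPM of the short Agtr1a-206.

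**Figure D2:**
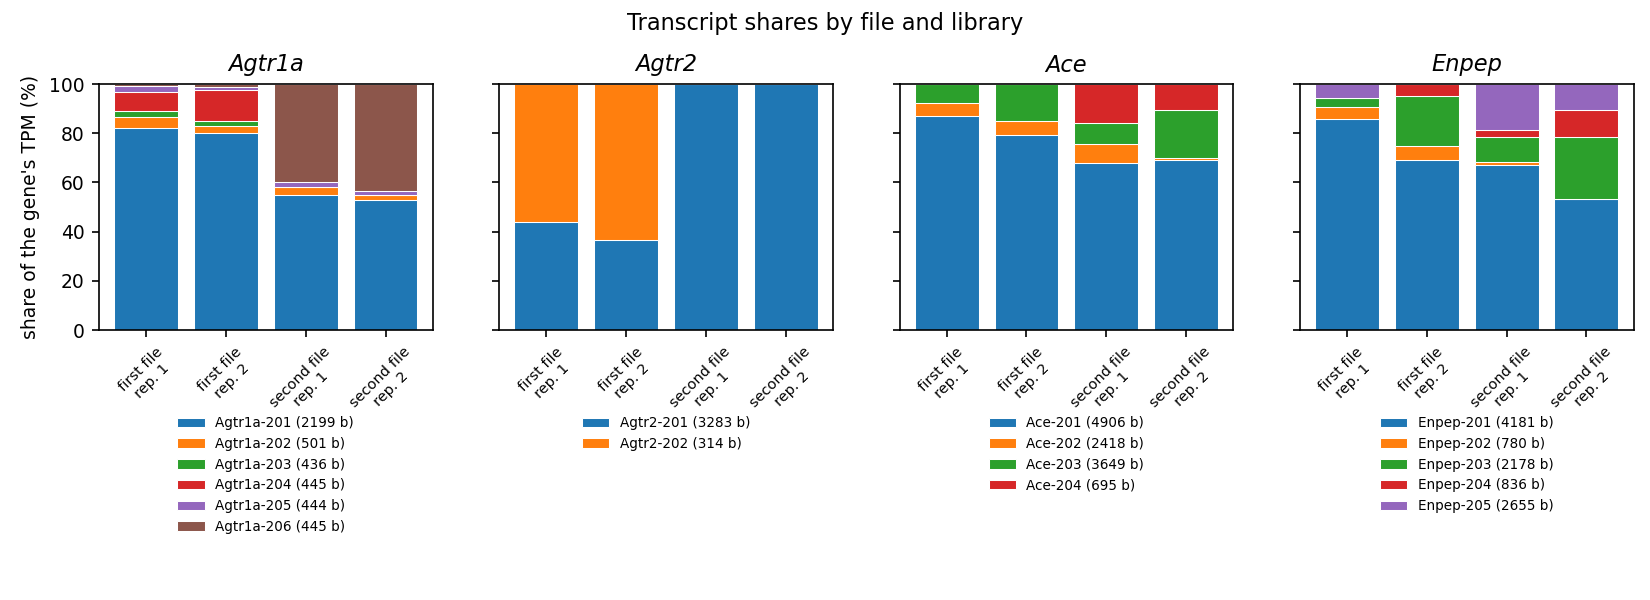
Share of the gene's TPM (percent) given to each transcript of Agtr1a, Agtr2, Ace and Enpep, with a bar for each file and library and transcript lengths in bases. Agtr1a-206 and the 314-base transcript of Agtr2 are prominent in 1 file only, and Ace-201 leads in all 4 bars.

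Mas1 (ENSMUSG00000068037.11, mm10 chr17:12841079-12868143, minus strand) encodes the receptor for angiotensin-(1-7). It had 0 counts in both libraries, in all 10 of its transcripts and in both files. A count of 0 allows up to 3 counts, which is 0.0845 CPM (counts scaled to the library's total) in replicate 1 and 0.0994 CPM in replicate 2. Mas1 was not detectable at this depth. The posterior-mean TPM column of the gene table lists 0.36 and 0.33 for it, although no count lies behind them. Airn, a long noncoding RNA read from the other strand across part of Mas1, had 76 and 144 counts.

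Across the 8 genes tested, 4 were higher in replicate 1 (Agtr1a, Ace, Enpep and Atp6ap2) and 4 were higher in replicate 2 (Agtr1b, Ren1, Agt and Agtr2). Their median log2 ratio was -0.01, and that of all tested genes was -0.01 with quartiles at -0.29 and 0.20. The intervals of 2 genes, Agtr1b and Ren1, include no difference. The 4 genes higher in replicate 1 lay within 0.02 of each other, at log2 ratios of 0.16 to 0.18.

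**Figure D3:**
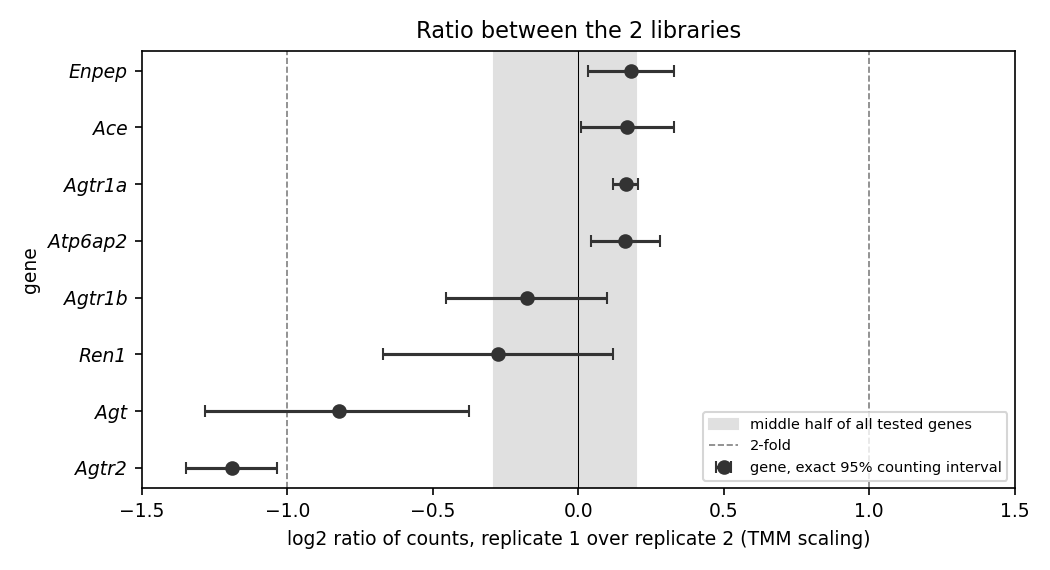
Log2 ratio of scaled counts, replicate 1 over replicate 2, of the 8 genes tested, with exact 95% counting intervals. The grey band is the range between the quartiles of all tested genes and dashed lines mark 2-fold. Agtr2 at -1.19 lies beyond the 2-fold line and Agt at -0.82 between it and the band.

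Other peptidases can make or break down angiotensins. Of 15 listed, 12 were tested, 0 were called and the median log2 ratio was -0.02. The highest were the lysosomal cathepsins Ctsb at 269 ± 58.2 TPM and Ctsd at 240 ± 58.1 TPM. They were followed by Lnpep, the angiotensin IV binding aminopeptidase, at 30.9 ± 7.37 TPM and Dpp3, a dipeptidyl peptidase, at 24.3 ± 2.47 TPM. Of the 3 peptidases not tested, Cma1 and Cpa3, of mast cells, had a mean of 0.570 and 0.600 TPM and Ctsg had 0 counts.

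Downstream of the AT1 receptor, 18 receptor partners and Gq signalling genes were all tested, 0 were called and the median log2 ratio was -0.05. Rgs2, which shortens Gq signals, led with 163 TPM in replicate 1 and 71.1 TPM in replicate 2 (log2 ratio 0.86). The replicate 1 level was thus well above that of replicate 2, without reaching 2-fold by counts. Itpr1, the calcium release channel gene, had 35.7 ± 2.68 TPM, Camk2d, a calcium-dependent kinase gene, 25.7 ± 5.18, and Mtus1, whose product binds the AT2 receptor, 25.0 ± 0.417. Agtrap, whose product binds the AT1 receptor and which was added for its role after its values were seen, had 23.1 and 16.1 TPM (19.6 ± 4.98). Each of these partners was below Agtr1a in mean TPM, although Rgs2 was above it in replicate 1.

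**Figure D4:**
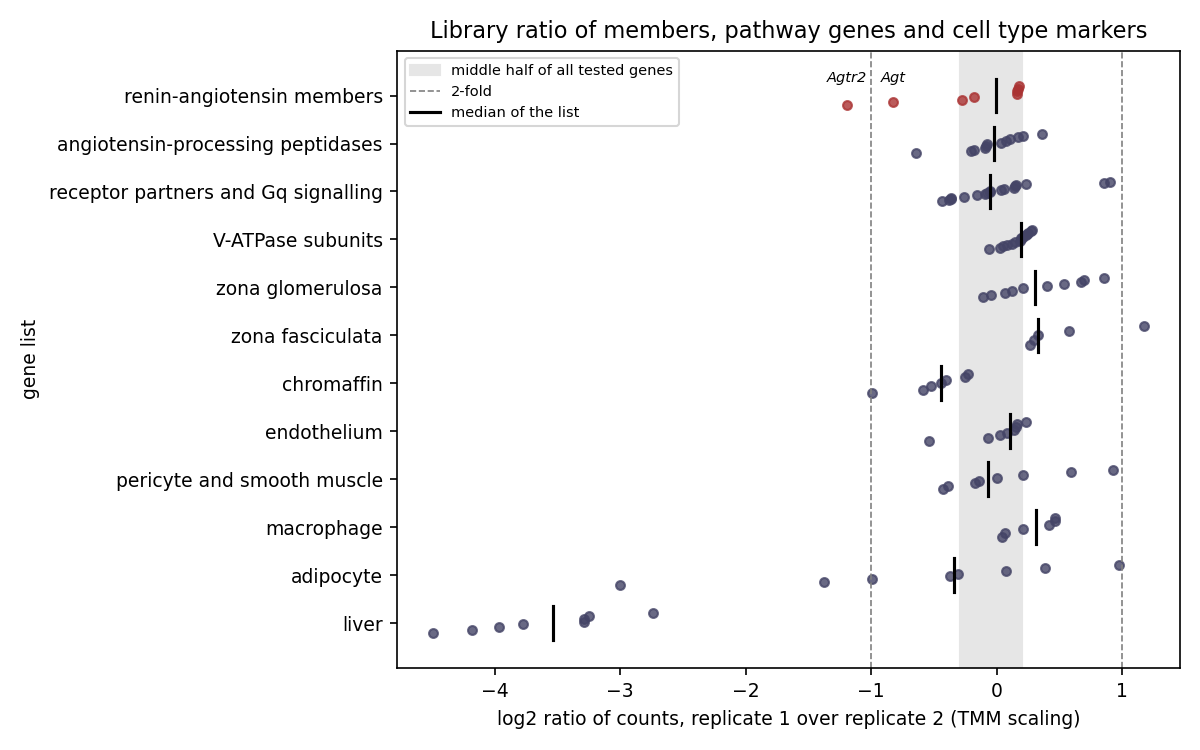
Log2 ratio of scaled counts, replicate 1 over replicate 2, one point per tested gene, for the 8 genes, the pathway lists and most cell type lists. The stroma, mast cell, kidney, pancreas and erythroid lists are not plotted. Black bars are medians, the grey band lies between the quartiles of all tested genes, and dashed lines mark 2-fold. The liver markers lie from -4.49 to -2.74, and the renin-angiotensin genes, from -1.19 to 0.18, lie on both sides of 0.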

How the data were processed

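Total RNA from adrenal gland was sequenced as directional, ribosome-depleted libraries with spike-in RNA, per the labels. The authors deposited expected counts and TPM per gene and transcript on mm10 and GENCODE M21, in the layout of RSEM, and a second transcript file of estimated counts and TPM in the layout of kallisto. For the programs used, names and versions were not given in the sources used here. The 26345 entries that name no gene (0.843% and 1.50% of counts) were left out.

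Levels are the deposited TPM. Ratios are rounded expected counts of replicate 1 over replicate 2, scaled by TMM on genes whose mean CPM was 1 or more (edgeR 4.0.16, R 4.3.3; factors 1.02 and 0.982), with 0.5 added. The same genes were tested, and called at 2-fold or more. With 1 library against 1 there is no replicate check and no p is given. The ratio procedure was tested on simulated data with 200 changed genes. Other steps used Biopython 1.88, matplotlib 3.10.9, scipy 1.17.1, pandas 2.3.3 and numpy 2.4.6 under Python 3.11.15. Sequences are from GENCODE M21 transcripts and RefSeq promoter windows (GRCm38.p6).

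The genes and lists were chosen with earlier results of these data known. Named genes are the 9 members, and of each other list up to 4 by mean TPM and up to 4 called. Genes named outside this rule, at the end of a range or for their known role, were chosen after their values were seen: Agtrap, Atp6v1d, Ccn3, Cma1, Cpa3, Ctsg and the kidney markers at or near 0. Alternatives were other scalings (total counts, DESeq2 1.42.0, spike-ins, nuclear protein-coding genes), filters, folds, TPM columns, the second file, and each replicate left out. Some members of the marker and peptidase lists count in list totals and are not reported by name.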

Additional observations from a re-analysis of the deposited data

How the results depend on the processing

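Of 163 comparisons with an alternative, 121 stayed within the spread or on the same side of the threshold. These 121 include levels, transcript shares and the Agtr1a to Agtr1b ratio with a replicate left out. Those comparisons were fixed as unmoved by the measure used. Only the 65 comparisons of log2 ratios could change direction, and none did so while called. Agtr1b, Ren1 and Agt changed sign with spike-in scaling without being called. With a floor of 5 TPM in both libraries, 3 of the 9 genes passed. With spike-in scaling 4 genes were called (Agtr1a, Ace, Enpep and Atp6ap2, all higher in replicate 1), and a fold of 1.5 called 2 (Agtr2 and Agt). With 8 genes tested, neither count is a result about the group as a whole. Over all genes, spike-in scaling called 5516 of 14780 (37.3%), with 5279 higher in replicate 1 and 237 in replicate 2. A fold of 1.5 called 2561 of these 14780 (17.3%). Without a filter 8099 of 26702 genes were called (30.3%), and with a minimum mean CPM of 5, 346 of 11093 (3.12%). The cause of the spike-in shift was not tested, and the other counts move with the filter or fold itself. The ratio of Agtr1a to Agtr1b was 63.7 in the second file. DESeq2 size factors moved the median of all genes by 0.10, and under the scalings other than spike-ins the log2 ratio of Agtr2 stayed between -1.25 and -1.09. Among the level settings, a left-out replicate could not count as moved, because either of 2 values always lies within 1 SD of their mean. Levels moved by more than the spread in 18 of 46 settings, counting those fixed ones. Of these, 15 were rescaling or the second file, and the others were the posterior-mean TPM of Ren1 (2.43) and Mas1 (0.345) and the coding transcript of Agtr2 alone. Each replicate left out gives the other library's value, printed beside each mean, and leaves no ratio between libraries. No paired analysis between conditions was possible because the series has 1 group. Genes with few counts, such as Agt and Ren1, have the widest intervals.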
